A study of Zea mays with 14 samples.

Results

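The actin control probe sets of the Affymetrix maize array were followed through germination of maize (Zea mays) embryonic axes, from which the seedling root and shoot develop. The members were all rows of the deposited table whose identifier begins with AFFX-Zm-actin or AFFX-Zm_Actin. There were 9 of them among 17734 probe sets. One series held 6 (AFFX-Zm-actin-3_a_at, M_a_at, M_x_at, 5_a_at, 5_x_at and 5_at), and another held 3 (AFFX-Zm_Actin_3_at, M_at and 5_at). They are called the 6-member and the 3-member series. In these names 3, M and 5 stand for the 3′ end, the middle and the 5′ end of the transcript.

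Actin is the globular protein that polymerizes into microfilaments, the tracks for vesicle movement and cytoplasmic streaming in plant cells. Plants carry a family of actin genes that are used in different organs and stages, and growing root and shoot cells need filaments for elongation and division. Because actin is often treated as a constant reference gene, arrays of this design carry it as a control, with probe sets along the transcript because labelling starts from the poly(A) tail. Probe sets ending in _at are designed for a unique sequence, those in _a_at for transcripts of the same gene, and those in _x_at can include probes shared with other sequences.

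The study compared 14 arrays of 11 biological samples in 5 groups. Polysomal RNA with insulin (3 samples), polysomal RNA without insulin (3 samples) and total RNA with insulin (1 sample) came from axes dissected after 22 h of imbibition in the dark and kept 2 h in Murashige and Skoog medium, with bovine insulin at 200 µU/mL or without it. Total RNA of axes of seeds germinated for 24 h had 2 samples (named M4 and RB), and whether these axes also passed through the medium is not in the labels. Total RNA of quiescent axes, before imbibition (0 h), had 2 samples. Polysomal RNA is the RNA that sediments with ribosomes through a sucrose cushion, taken from 2 g of axes, against 1 g for total RNA. There was no total RNA of axes kept in medium without insulin under a label of its own, so the insulin total sample was set against the 24 h total samples. The labels do not give the maize line, nor whether replicates came from separate seed lots, so p-values measure the spread between these samples only. The axes were extracted whole, so fewer cells of a type and less RNA per cell cannot be told apart, and no cell type markers were examined.

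Values are the deposited log2 intensities, so each is set against the rest of the RNA in its own sample. A difference of 1 is a 2-fold change. Array medians lay between 7.28 and 7.65. The background of a sample was the 95th percentile of its 23 negative controls and lay between 4.29 and 4.81. Of the 9 actin probe sets, 7 were above it in all 11 samples. AFFX-Zm_Actin_3_at and AFFX-Zm_Actin_5_at were below it in all 11. "Called" means an adjusted p under 0.05 in limma, by the Benjamini-Hochberg method over 17582 probe sets, with all 5 groups in 1 fit. The single insulin total sample is assumed to vary like the other groups. Levels of different probe sets are not compared with each other, since each has its own probes.

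Before the results, the technical arrays need a description, because 1 pair disagreed on actin. M4, the insulin total sample and quiescent sample 1 were each hybridised on 2 arrays, whose values were averaged. In the insulin total sample the 3′ probe set AFFX-Zm-actin-3_a_at read 11.53 on the first array and 12.24 on the second, while the middle probe set M_a_at read 11.95 and 11.33 and the 5′ probe set 5_a_at read 10.80 and 10.22. The first array was thus 0.71 lower at the 3′ end and 0.63 and 0.57 higher in the middle and at the 5′ end. Over all tested probe sets the median absolute difference of that pair was 0.20 and its 95th percentile 0.67, so the 3′ probe set lay beyond that percentile and the middle and 5′ probe sets just inside it. M_x_at differed by 0.50 and 5_x_at by 0.31 in that pair. The 9 actin differences of M4 stayed between −0.12 and 0.08, and those of quiescent sample 1 between −0.33 and 0.40, the extremes being the probe sets below background. Results that use the insulin total sample are therefore also given for each of its arrays.

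The first question was whether actin mRNA differs between germinated and quiescent axes. In the 6-member series, 4 of 6 probe sets (3′, both middle and 1 of the 5′) were several-fold higher in all germinated groups. The middle probe set of the 3-member series moved the other way and was lower in all of them. The remaining 2 probe sets of the 6-member series, both 5′, were dim and differed little, and the 3′ and 5′ probe sets of the 3-member series gave no signal above background. The name actin therefore covered opposite changes on the same arrays.

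The 3′ probe set AFFX-Zm-actin-3_a_at read 12.30, 12.14 and 12.10 in polysomal RNA with insulin, 12.09, 12.19 and 12.25 in polysomal RNA without insulin, 11.88 in insulin total RNA, 12.11 and 12.15 in 24 h total RNA (M4 and RB), and 8.55 and 8.62 in quiescent RNA. All 9 germinated samples were high and within 0.42 of each other, and both quiescent samples were low, with no overlap. Group means fell in the order polysomal with insulin (12.18 ± 0.11, SD, n = 3), polysomal without insulin (12.18 ± 0.08, n = 3), 24 h total (12.13 ± 0.03, n = 2), insulin total (11.88) and quiescent (8.59 ± 0.04, n = 2). Only the step to quiescent axes was called. The 24 h mean was 3.55 above the quiescent mean (11.7-fold, SE 0.15, limma adjusted p = 7.00e-07).

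The middle probe set AFFX-Zm-actin-M_a_at gave the steepest difference of the actin members. It read 11.49, 11.63 and 11.95 in polysomal RNA with insulin, 11.52, 11.35 and 12.26 without insulin, 11.64 in insulin total RNA, 11.08 and 11.66 in M4 and RB, and 7.19 and 7.11 in quiescent RNA. Germinated samples spread over more than 1 log2 unit here, with polysomal sample 3 highest in both insulin groups, yet the lowest of them, M4, was still far above both quiescent samples. The means were 11.69 ± 0.24, 11.71 ± 0.48, 11.64, 11.37 ± 0.41 and 7.15 ± 0.06 in the same order of groups. The 24 h mean was 4.22 above the quiescent mean (18.7-fold, SE 0.31, limma adjusted p = 1.09e-05).

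The second middle probe set, AFFX-Zm-actin-M_x_at, followed it. Its levels were 10.39, 10.38 and 10.77 in polysomal RNA with insulin, 10.39, 10.29 and 11.11 without insulin, 10.67 in insulin total RNA, 9.94 and 10.44 in M4 and RB, and 6.86 and 6.43 in quiescent RNA. Again polysomal sample 3 was the highest of its group, M4 the lowest germinated sample, and the quiescent samples stood apart. The 24 h mean was 3.55 higher (11.7-fold, SE 0.31, limma adjusted p = 2.42e-05).

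At the 5′ end, AFFX-Zm-actin-5_a_at read 9.83, 10.05 and 10.72 in polysomal RNA with insulin, 10.06, 9.57 and 11.10 without insulin, 10.51 in insulin total RNA, 9.84 and 10.15 in M4 and RB, and 7.44 and 7.04 in quiescent RNA. It had the widest germinated range of the 9 probe sets, 9.57 to 11.10, with the number 3 polysomal samples at the top. Germinated and quiescent samples did not overlap. The 24 h mean was 2.75 higher (6.73-fold, SE 0.46, limma adjusted p = 0.00106).

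The other 5′ probe sets did not share this difference. AFFX-Zm-actin-5_x_at read 5.54, 5.55 and 5.61 in polysomal RNA with insulin, 5.62, 5.48 and 6.07 without insulin, 6.13 in insulin total RNA, 5.87 and 5.92 in M4 and RB, and 6.11 and 6.14 in quiescent RNA. AFFX-Zm-actin-5_at read 4.86, 4.69 and 5.03 in polysomal RNA with insulin, 5.12, 4.78 and 5.30 without insulin, 5.71 in insulin total RNA, 5.63 and 5.25 in M4 and RB, and 5.38 and 5.96 in quiescent RNA. Both were dim, though above background, and the groups overlapped or lay close together. The lowest sample of each was polysomal and the highest quiescent. At 24 h neither was called (−0.23 each, 95% interval −0.67 to 0.21 for 5_x_at and −0.80 to 0.35 for 5_at, limma adjusted p = 0.363 and 0.492).

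AFFX-Zm_Actin_M_at, the middle probe set of the 3-member series, ran in the opposite direction. It read 8.26, 8.10 and 8.01 in polysomal RNA with insulin, 8.10, 7.97 and 7.97 without insulin, 8.11 in insulin total RNA, 8.03 and 8.55 in M4 and RB, and 10.09 and 10.33 in quiescent RNA. The quiescent samples were the high ones, the 9 germinated samples lay within 0.58 of each other, and RB was the germinated sample nearest to the quiescent level. Group means were 8.12 ± 0.13, 8.01 ± 0.08, 8.11, 8.29 ± 0.37 and 10.21 ± 0.18. At 24 h it fell by 1.92 relative to quiescent axes (3.78-fold lower, SE 0.20, limma adjusted p = 6.70e-05).

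The 3′ probe set of that series, AFFX-Zm_Actin_3_at, read 2.91 to 3.34 over all 11 samples. The 5′ probe set, AFFX-Zm_Actin_5_at, read 3.40 to 3.69 in germinated samples and 4.25 and 3.94 in quiescent samples. The 5′ difference was called at 24 h (−0.45, limma adjusted p = 0.0379), and the call was lost without quiescent sample 1 (−0.29), M4 (−0.43) or RB (−0.47) and after quantile normalization (−0.21). Both groups were below background, so neither probe set gives a fold change. The middle probe set is thus the only one of the 3-member series with a measured level.

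Counted over the 9 members, 24 h total RNA gave 4 higher calls, 2 lower calls and 3 members without a call against quiescent total RNA. The table as a whole changed widely, with a call for 47.1% of the 17582 tested probe sets (21.3% higher, 25.8% lower). Against that background a call at 24 h was common, so the place of each member in the order of changes is given as well. In the order of all 17582 differences, M_a_at was the 236th highest, 3_a_at the 416th, M_x_at the 418th and 5_a_at the 754th, and AFFX-Zm_Actin_M_at was the 871st lowest. The median over the 9 members was −0.17, beside −0.17 over all tested probe sets. It was the value of AFFX-Zm_Actin_3_at, which was below background, so it does not describe the members with a measured level. The 18 other control probe sets named for maize genes had 2 called higher, 0 lower and 16 not called in this comparison. The 2 were middle probe sets named for GAPDH (5.19 and 5.12), above every actin member. The other GAPDH probe sets were not called (−0.54 to −0.38). A large difference in only some probe sets of a control gene was thus not particular to actin.

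Scaling moved the level of reference and, with it, the calls of dim members. The median of all tested probe sets was −0.17 as deposited, −0.09 after quantile normalization and −0.44 with each array centred on its median. Centring changed the split of calls over the table to 3062 higher and 7351 lower, against 3737 higher and 4538 lower as deposited. Among the 9 members it left 4 higher and gave 4 lower, since 5_x_at (−0.50, limma adjusted p = 0.0496) and AFFX-Zm_Actin_3_at (−0.44, limma adjusted p = 0.0486) were then called. Quantile normalization gave 4 higher and 1 lower. Relative to the median of all probe sets, the deposited 24 h difference was 4.39 for M_a_at, 3.72 for 3_a_at and for M_x_at, 2.92 for 5_a_at and −1.75 for AFFX-Zm_Actin_M_at. The 5 members just given were called in the same direction in all 240 combinations of probe set, alternative setting and germinated group against quiescent axes, with a highest adjusted p of 0.0122 in limma.

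The other germinated groups were set against the same quiescent samples, so the 4 comparisons share their reference and do not repeat each other. Their values are given side by side. For 3_a_at the difference from quiescent was 3.60 in polysomal RNA with insulin, 3.59 in polysomal RNA without insulin, 3.30 in insulin total RNA and 3.55 in 24 h total RNA. For M_a_at it was 4.54, 4.56, 4.49 and 4.22 in that order of groups. The ranges over the 4 groups were 3.55 to 4.03 for M_x_at, 2.75 to 3.27 for 5_a_at and −2.20 to −1.92 for AFFX-Zm_Actin_M_at. All 20 of these differences were called, with the largest adjusted p, 0.00158, for 5_a_at in insulin total RNA.

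Polysomal RNA with insulin had 4 members called higher, 4 lower and 1 not called against quiescent total RNA, where 59.8% of all tested probe sets were called (25.4% higher, 34.4% lower). Besides AFFX-Zm_Actin_M_at and AFFX-Zm_Actin_5_at below background, the lower ones were 5_at (fell by 0.81, SE 0.23, limma adjusted p = 0.014) and 5_x_at (fell by 0.56, SE 0.18, limma adjusted p = 0.0225). The call of 5_at was lost without quiescent sample 2 (−0.52), and that of 5_x_at was lost without either quiescent sample (−0.57 and −0.54) and without polysomal insulin sample 1 or 2 (−0.55 each). Polysomal RNA without insulin had 4 members called higher, 2 lower and 3 not called, with 57.7% of all tested probe sets called (25.1% higher, 32.6% lower). There 5_at differed by −0.60 (limma adjusted p = 0.0502) and 5_x_at by −0.40 (limma adjusted p = 0.0806). Without polysomal no-insulin sample 3 both were called lower (−0.72 and −0.57), and 5_at also without quiescent sample 1 (−0.89). With arrays centred on their medians all 9 members were called, 4 higher and 5 lower, with 5_at at −0.83 (limma adjusted p = 0.00947), 5_x_at at −0.63 (limma adjusted p = 0.0111) and AFFX-Zm_Actin_3_at, below background, at −0.43 (limma adjusted p = 0.0344). Quantile normalization also called 5_x_at (−0.52, limma adjusted p = 0.0307). In polysomal RNA with insulin, AFFX-Zm_Actin_5_at lost its call after quantile normalization (−0.34, limma adjusted p = 0.0525). These comparisons change stage and RNA fraction together, so the 2 cannot be told apart in them.

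Insulin total RNA had 4 members called higher, 1 lower and 4 not called against quiescent total RNA, with 40.7% of all tested probe sets called (19.6% higher, 21.1% lower). Centring added a lower call for AFFX-Zm_Actin_5_at (−0.69, limma adjusted p = 0.0222). With first technical arrays only, of this sample and of quiescent sample 1, the difference was 2.96 for 3_a_at and 4.78 for M_a_at. With second technical arrays only the values were 3.64 and 4.20. The size of both differences thus depended on the array, while the direction did not. With arrays centred on their medians, the split over all tested probe sets in the 3 comparisons became 3819 higher and 8379 lower for polysomal RNA with insulin (4472 and 6047 as deposited), 3803 and 7868 for polysomal RNA without insulin (4415 and 5734), and 2757 and 5547 for insulin total RNA (3444 and 3715).

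The next question was whether actin mRNA takes another share of polysomal RNA than of total RNA. The polysomal axes had passed through the medium, while for the 24 h total axes this is unstated. Fraction and medium therefore cannot be told apart in the comparison without insulin. Without insulin none of the 9 members was called between polysomal and 24 h total RNA, in a comparison where calls covered 1.08% of the table (0.307% higher and 0.774% lower). The background itself depended on single samples: 190 probe sets were called with all samples, 2306 without M4, 61 without RB and 6 without polysomal no-insulin sample 3, but no actin probe set was among them in any of these fits. The 3′ probe set differed by 0.04 (95% interval −0.26 to 0.34), M_a_at by 0.34 (−0.31 to 0.98), M_x_at by 0.41 (−0.23 to 1.04), 5_a_at by 0.25 (−0.69 to 1.19) and AFFX-Zm_Actin_M_at by −0.28 (−0.69 to 0.13). The interval stayed within 2-fold either way for 7 of the 9, the exceptions being M_x_at and 5_a_at. The difference of M_x_at was the largest in size, and the largest over the members became 0.65 when RB was left out.

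With insulin none of the 9 was called between polysomal and total RNA, where 0.00569% of all tested probe sets, a single one, was called. The 3′ probe set was 0.30 higher in polysomal RNA (95% interval −0.08 to 0.68) and AFFX-Zm_Actin_M_at 0.02 higher (−0.50 to 0.53). The dim 5′ probe sets had the largest differences, −0.85 for 5_at (limma adjusted p = 0.458) and −0.56 for 5_x_at (limma adjusted p = 0.499). All 3 polysomal samples were below the insulin total sample for both, which is common against a single sample when nothing differs. Against the first array of the insulin total sample the 3′ difference was 0.66, and against the second −0.05. For M_a_at these values were −0.26 and 0.36, so the sign of both depended on the array.

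Insulin was the growth factor of the series, and its effect on actin was asked in polysomal RNA with 3 samples on each side. No actin probe set was called, and limma called 0% of all tested probe sets (57 of them had an unadjusted p under 0.05). These 57 are far fewer than that threshold gives on average when nothing differs, so the test was conservative. The lack of calls is therefore weak evidence on small differences. Deviations from the group means correlated between insulin sample 1 and no-insulin sample 2 (0.70), 2 and 1 (0.77) and 3 and 3 (0.60), which the fit does not use. Their part in the low count was not tested. All 9 members overlapped between polysomal insulin and polysomal no-insulin samples. Most probe sets overlap with 3 samples on each side when nothing differs. The share over all tested probe sets was not counted, so the overlap is no result about actin. The difference was 0.0071 for 3_a_at (95% interval −0.26 to 0.28), −0.02 for M_a_at (−0.60 to 0.56), −0.08 for M_x_at (−0.65 to 0.48), −0.04 for 5_a_at (−0.88 to 0.80) and 0.11 for AFFX-Zm_Actin_M_at (−0.26 to 0.48). For all 9 the interval stayed within 2-fold either way. The largest difference over the members was 0.21, at 5_at, and it lay between 0.15 and 0.39 when single samples were left out, the highest value being that without polysomal no-insulin sample 3.

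In total RNA the single insulin sample was set against M4 and RB. None of the 9 was called, nor any other tested probe set (0%, with 427 at an unadjusted p under 0.05 in limma). These 427 are also fewer than that threshold gives on average when nothing differs. The count depended on the arrays, with 1719 for first technical arrays only, more than that average, and 130 for second technical arrays only. Without M4, 416 probe sets of the table were called, and again no actin probe set. The insulin sample lay below both 24 h samples for 3_a_at (−0.25, 95% interval −0.65 to 0.15) and above both for 5_a_at (0.51, −0.75 to 1.78), M_x_at (0.48, −0.37 to 1.32), 5_x_at (0.23) and 5_at (0.27). For M_a_at (0.27, −0.60 to 1.14) and AFFX-Zm_Actin_M_at (−0.18, −0.73 to 0.37) it lay between them. With 1 sample against 2, a place outside both is common when nothing differs, and its share over all tested probe sets was not counted. With first technical arrays only, of the insulin sample and of M4, the differences were −0.58 for 3_a_at and 0.83 for 5_a_at. With second technical arrays only they were 0.07 and 0.20. Since the labels leave the medium of the 24 h axes unstated, insulin and medium cannot be told apart here.

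Samples within a group also varied in a patterned way along the 6-member series. Over the 9 germinated samples, which differ in fraction, insulin and array, the Pearson correlation was 0.97 between M_a_at and M_x_at, 0.90 between M_a_at and 5_a_at and 0.87 between 5_x_at and 5_at. It was 0.13 between 3_a_at and M_a_at and −0.16 between 3_a_at and 5_a_at. The middle and 5_a_at probe sets thus went up and down together across germinated samples, and the 3′ probe set did not go with them. M4 and RB showed the same split: M4 was 0.58 lower for M_a_at, 0.50 lower for M_x_at and 0.30 lower for 5_a_at, but 0.04 lower for 3_a_at, where the median absolute difference between M4 and RB over all tested probe sets was 0.33. AFFX-Zm_Actin_M_at was 0.52 lower in M4.

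The difference between 3′ and 5′ probe sets on the same array is meant to follow a transcript along its length. Scaling of a whole array cancels in it. Whether 3_a_at and 5_a_at read the same transcript is not known here, and the other 5′ probe sets did not share the higher germinated level. Only its change between samples is read, since both probe sets have their own brightness. AFFX-Zm-actin-3_a_at minus 5_a_at was 2.47, 2.09 and 1.38 in polysomal RNA with insulin, 2.03, 2.61 and 1.15 without insulin, 1.37 in insulin total RNA, 2.27 and 2.01 in M4 and RB, and 1.11 and 1.57 in quiescent RNA. Germinated and quiescent samples overlapped, with the number 3 polysomal samples and the insulin total sample near the quiescent values. The mean was 1.93 ± 0.52 in germinated samples (SD, n = 9) and 1.34 ± 0.33 in quiescent samples (n = 2), and the difference of 0.59 did not pass an exact two-sided permutation test (p = 0.218, adjusted over 4 tests p = 0.436).

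The difference between 3_a_at and M_a_at was 0.82, 0.51 and 0.15 in polysomal RNA with insulin, 0.57, 0.83 and −0.01 without insulin, 0.24 in insulin total RNA, 1.03 and 0.49 in M4 and RB, and 1.36 and 1.51 in quiescent RNA. Both quiescent samples lay above all 9 germinated samples. The mean was 0.52 ± 0.34 in germinated samples (SD, n = 9) and 1.44 ± 0.10 in quiescent samples (n = 2), a difference of −0.92. Its exact two-sided permutation p of 0.0364 is the smallest that 9 against 2 samples allow, and it was 0.145 when adjusted over the 4 tests. This is the same fact as the larger germinated difference of M_a_at (4.22 at 24 h) than of 3_a_at (3.55). The other middle probe set, M_x_at, differed by 3.55 at 24 h, like 3_a_at. With M_x_at in place of M_a_at, germinated and quiescent samples overlapped, since quiescent sample 1 lay below M4. The separation was thus seen with M_a_at only.

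Polysomal samples did not stand apart from germinated total RNA in either measure. The total RNA samples included M4 and RB, whose passage through the medium is unstated, so fraction and medium cannot be told apart here either. For 3_a_at minus 5_a_at the means were 1.96 ± 0.58 in polysomal RNA (SD, n = 6) and 1.88 ± 0.46 in total RNA (n = 3), with an exact permutation p of 0.786. For 3_a_at minus M_a_at they were 0.48 ± 0.34 (n = 6) and 0.59 ± 0.40 (n = 3), with an exact permutation p of 0.714, adjusted to 0.786 for both. The choice of array mattered for the insulin total sample, whose 3_a_at minus 5_a_at was 0.73 on its first array and 2.02 on its second. The other technical pairs lay closer together, at 2.27 and 2.28 in M4 and 0.99 and 1.23 in quiescent sample 1. When the dim 5_at replaced 5_a_at, the differences became 4.07 for germinated against quiescent and 0.70 for polysomal against total RNA. Both passed the exact permutation test (adjusted p = 0.0485). Each had the smallest unadjusted p that its sample numbers allow (0.0364 and 0.0238). Passing rested on the family of 4 tests, because 3_a_at minus M_a_at for germinated against quiescent samples was also at its smallest p. When that was the only test at its smallest p, its 0.0364 became 0.145 after adjustment. Neither comparison passed after adjustment when 5_x_at replaced 5_a_at and M_x_at replaced M_a_at. For 3_a_at minus 5_x_at, germinated and quiescent samples still did not overlap, so that result missed through the adjustment only. Like 5_at, 5_x_at did not share the higher germinated level (5.48 to 6.13, against 6.11 and 6.14 in quiescent samples). The 4.07 restates that 5_at did not share the higher germinated level of 3_a_at. Beside the 0.70 stand the means of 5_at itself, 4.86 and 5.07 in polysomal RNA with and without insulin, against 5.71 in insulin total and 5.44 in 24 h total RNA.

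Within the polysomal groups, a like sample order appeared in the control probe sets of elongation factor EF1a, the protein that delivers aminoacyl-tRNA to the ribosome. Its 3′ minus 5′ difference was 2.43, 1.64 and 1.19 in polysomal RNA with insulin and 1.52, 2.73 and 1.08 without insulin, so sample 3 was lowest in both groups, as for actin. The ubiquitin difference was 1.37, 0.61 and 0.60 with insulin and 0.58, 1.33 and 0.59 without, with the same samples at the top of each group. In total RNA the EF1a values did not follow those of actin. They were 0.55 in insulin total RNA and 0.82 and 0.85 in M4 and RB, against 1.35 and 1.56 in quiescent RNA, so these germinated samples lay below the quiescent and all polysomal ones, whereas for actin M4 and RB lay above both quiescent samples. The part of this shared order in the spread of the actin 5′ and middle values was not tested.

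To place the actin patterns in the table, all tested probe sets were ranked by the Pearson correlation of their levels with an actin probe set over the 11 samples. The samples fall into quiescent and germinated ones, so this measure mostly reads that one step, and 1228 of 17581 probe sets had r above 0.95 with 3_a_at. The 2 nearest to 3_a_at had r = 0.9996 and 0.999 (0.93 and 0.94 over the 9 germinated samples). Their means were 11.21 and 12.38 in germinated samples and 7.77 and 7.35 in quiescent samples. Among the actin members, M_a_at ranked 284th (r = 0.985), M_x_at 500th (0.978), 5_a_at 1623rd (0.931) and AFFX-Zm_Actin_M_at 17347th (−0.975).

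The 2 nearest to AFFX-Zm_Actin_M_at had r = 0.996 and 0.995 (0.90 and 0.93 over the germinated samples). They had means of 5.53 and 7.13 in germinated samples and 9.56 and 10.06 in quiescent samples, so both were lower after germination like the actin probe set. The gene table used here pairs none of these 4 probe sets with a gene, nor any of the 9 actin control probe sets. Which maize actin genes the 2 series read is therefore not given here.

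Other genes of the cytoskeleton could be placed beside actin only where the gene table named them. It lists 1453 probe sets, and 24 of them belonged to 17 genes of the chosen families. These were 10 probe sets of 6 beta tubulin genes, 4 of 3 alpha tubulin genes, 5 of 5 profilin genes and 5 of 3 actin depolymerizing factor (ADF) genes. Probe sets of the same gene do not count as separate genes in what follows. Tubulins build microtubules, the second filament system of plant cells. Profilin binds actin monomers and ADF severs and depolymerizes actin filaments. The table named no probe set for actin itself, villin, fimbrin, formin, or ARP2/3 subunits and actin-related proteins.

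At 24 h, 15 of the 24 probe sets were called higher than in quiescent axes, 0 lower and 9 not called, beside 21.3% of all tested probe sets called higher. Their median difference was 1.36, against −0.17 over all tested probe sets. All 10 beta tubulin probe sets, of 6 genes, were higher, between 1.21 for TUBB2 and 5.05 for TUBB4. TUBB4 read 11.56 and 11.54 in M4 and RB, against 6.25 and 6.75 in quiescent samples (SE 0.29, limma adjusted p = 2.85e-06). Among alpha tubulins TUBA5 was 5.00 higher (SE 0.16, limma adjusted p = 3.93e-07), TUBA6 2.87 higher and 1 TUBA1 probe set 2.34 higher, while the other TUBA1 probe set differed by 0.43 and was not called.

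The actin-binding proteins were divided. PRO4, a profilin of vegetative tissue, was 1.65 higher at 24 h (SE 0.14, limma adjusted p = 2.44e-05), reading 12.71 and 12.72 in M4 and RB, against 11.10 and 11.03 in quiescent samples. PRO5, the other vegetative profilin, was 0.46 higher (limma adjusted p = 0.0444), a call that was lost with any 1 of the 4 samples left out (0.39 to 0.53) and with arrays centred on their medians (0.19). PRO1, PRO2 and PRO3, known as pollen profilins, differed by −0.08, −0.07 and −0.37 and were not called. None of the 5 ADF probe sets was called: the 3 of ADF3, the vegetative form, differed by −0.0067, 0.07 and 0.12 at levels of 12 to 13 in both groups, and the pollen forms ADF1 and ADF2 were below background in both. TUBB3 was 1.62 higher (limma adjusted p = 0.013), and its call was lost without quiescent sample 1 (1.48) or M4 (1.23).

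The counts in the other germinated groups were alike. Against quiescent axes, 15 of the 24 were called higher in polysomal RNA with insulin, 15 without insulin and 14 in insulin total RNA, beside 25.4%, 25.1% and 19.6% of all tested probe sets in that order. None was called lower as deposited. With arrays centred, PRO3 was called lower in 24 h total RNA (−0.63) and PRO2 and PRO3 in both polysomal groups (−0.58 to −0.52). In the 4 comparisons among germinated groups 0 of the 24 were called, as for the 9 actin probe sets, where limma called between 0% and 1.08% of the whole table.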

How the data were processed

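Embryonic axes of maize were measured on 14 arrays, 11 biological samples in 5 groups. The authors deposited 1 table of 17734 probe sets, whose values (2.60 to 14.38) were taken as log2 intensities from their range, since no header states the scale. Limma is the one tool in the submitters' processing notes, with no version. The sources used here do not give the background correction, the normalization or the probe summary. Per the labels' protocols, 4 µg of RNA was labelled as biotinylated cRNA.

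Members and lists were chosen with earlier results of these data known. All actin control probe sets are named. Others are the 2 nearest in correlation, given without identifiers, to AFFX-Zm-actin-3_a_at and to AFFX-Zm_Actin_M_at, or genes of the cytoskeleton families, with the leading and the lost calls chosen after their values were seen. Of 17734 probe sets, 152 other controls were left out, and 17582 were fitted on log2 values with limma 3.58.1 (lmFit and eBayes, R 4.3.3) after averaging technical arrays, all 5 groups together (6 residual and 3.21 prior degrees of freedom), with Benjamini-Hochberg adjustment. The fit was tested on simulated data. Differences along the transcript used exact permutation tests over samples (4 tests). Gene names came from GEO's platform annotation (1453 probe sets, 1452 with 1 symbol and 1 with several), of which 1377 matched a RefSeq gene by Entrez identifier. Common names are RefSeq synonyms. Probe and transcript sequences were not used here. Alternatives covered scaling, dim probe sets, technical arrays, samples in the fit, the prior, the replicate number as a block and leaving out each sample. The use of second technical arrays only was chosen after seeing the data. Precision is limited by the number of arrays.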

Additional observations from a re-analysis of the deposited data

How the results depend on the processing

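The differences of AFFX-Zm-actin-3_a_at, M_a_at, M_x_at, 5_a_at and AFFX-Zm_Actin_M_at from quiescent axes kept their direction and call in every alternative. These were 48 combinations of alternative and germinated group for each probe set, over 4 comparisons that share the quiescent samples. No count of called actin probe sets moved by more than 1.5 times. Direction changed only for small differences or measures. Insulin total against quiescent became −0.055 (quantile normalization), −0.25 (arrays centred) and −0.25 to 0.33 (single samples left out) for 5_at, and −0.24, −0.28, −0.0086 to 0.018 and, with second technical arrays only, −0.14 for 5_x_at. Polysomal insulin against quiescent became 0.041 after quantile normalization and −0.25 to 0.058 with single samples left out for AFFX-Zm_Actin_3_at, below background throughout. 24 h against quiescent ranged from −0.52 to 0.064 for 5_at with single samples left out. For polysomal against germinated total RNA, 3′ minus 5′ was −0.14 with second technical arrays only and −0.18 to 0.27 with single samples left out, and 3′ minus middle was 0.15 with first technical arrays only and −0.28 to 0.11. With 5_at as the 5′ probe set, 3′ minus 5′ was 4.07 for germinated against quiescent and 0.70 for polysomal against total RNA. The cause of these changes was not tested. Polysomal samples with and without insulin share replicate numbers, but the labels do not say whether equal numbers were prepared together. The deviations of same-numbered samples correlated at −0.63, −0.44 and 0.60. With 3 samples per group these correlations constrain each other, so they cannot decide whether the numbers pair the samples. Only the number 3 samples correlated best with each other, while insulin sample 1 did so with no-insulin sample 2 (0.70) and insulin sample 2 with no-insulin sample 1 (0.77), and no fit crossing the numbers was run. With the replicate block 0 actin probe sets were called, as without it. Probe sets below background allow no fold change, and groups of 1 and 2 samples limit the rest.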
